A study of Mus musculus with 3 samples.

Results

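Nr4a and Egr transcription factors were examined together with 3 members of the AP-1 complex in immune cells of inflamed sciatic nerve. The 9 genes were taken by name: Nr4a1, Nr4a2, Nr4a3, Egr1, Egr2, Egr3, Fos, Jun and Junb, out of 32285 genes in each count matrix. They were measured by single-cell RNA-Seq of CD45+ (immune) cells sorted from the sciatic nerve. All mice were neuropathic NOD.AireGW/+ animals: they carry 1 altered copy of Aire, whose product makes the thymus show self-antigens to developing T cells, and the NOD strain is itself prone to autoimmunity. The 3 libraries formed 1 group. Libraries 1 and 2 held cells of 1 mouse each and library 3 pooled cells of 2 mice that were not told apart. The labels used here give no age, and no other samples were analysed here, so cell classes were compared within libraries and no effect of disease was tested. The nerves had been minced, digested with collagenase and triturated through a needle before sorting.

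Nr4a1 (Nur77), Nr4a2 (Nurr1) and Nr4a3 (Nor1) encode orphan nuclear receptors that lymphocytes transcribe soon after their antigen receptor is engaged. Egr1, Egr2 and Egr3 encode zinc finger factors induced downstream of ERK and NFAT signals, and Egr2 and Egr3 are known for restraining T cell activation. Fos, Jun and Junb encode subunits of AP-1, which works with NFAT at activation genes, and Fos and Jun are also immediate early genes that rise in many cell types during enzymatic tissue dissociation. A UMI of any of these genes is therefore not specific to the antigen receptor, and each was read beside Fos, Jun and a list of other immediate early and heat shock genes.

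The sequences just before the starts of the Nr4a genes are shown because the paralogs, which share an antigen receptor response, had different patterns across cell classes here. RefSeq windows (GRCm38.p6) were held for 7 of the 9 genes. The motif searched was TGACG on both strands (CGTCA on the strand shown), the half-site of the cyclic AMP response element that CREB family factors bind, and its matches are in capitals. The window of Nr4a1 is chr15:101266596-101266845 (plus strand), which lies within the longer GENCODE gene and overlaps no annotated exon. That of Nr4a2 is chr2:57124004-57124253 (minus strand), directly before the annotated gene. The RefSeq start of Nr4a3 lies inside the annotated gene, and chr4:48045055-48045152 (plus strand) is the part of its window before the first annotated exon.
Nr4a1: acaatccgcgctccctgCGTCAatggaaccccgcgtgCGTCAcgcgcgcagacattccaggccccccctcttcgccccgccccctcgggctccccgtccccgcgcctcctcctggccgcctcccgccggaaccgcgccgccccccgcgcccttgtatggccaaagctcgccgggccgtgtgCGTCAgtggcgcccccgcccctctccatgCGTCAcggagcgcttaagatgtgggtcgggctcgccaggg
Nr4a2: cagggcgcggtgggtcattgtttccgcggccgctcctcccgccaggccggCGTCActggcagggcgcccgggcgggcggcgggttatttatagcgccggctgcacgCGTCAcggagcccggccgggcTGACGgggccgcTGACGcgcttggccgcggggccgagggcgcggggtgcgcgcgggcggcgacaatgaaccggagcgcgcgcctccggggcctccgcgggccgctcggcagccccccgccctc
Nr4a3: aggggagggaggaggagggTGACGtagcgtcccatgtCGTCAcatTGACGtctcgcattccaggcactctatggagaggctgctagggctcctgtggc
The 250-base windows of Nr4a1, Nr4a2 and Nr4a3 held 4 matches each, and 3 of those of Nr4a3 are in the 98 bases shown. The window of Fos held 2, that of Junb 1 and that of Jun 0, and those of Egr2 held 0 to 2 depending on the start. Of all 32851 RefSeq windows, 17.8% held at least 1. GCGNGGGCG, the motif of EGR proteins, had 1 match each in the windows of Nr4a1 and Nr4a2, and 4.70% of all windows held it. The full element TGACGTCA (1.55% of all windows), the AP-1 motif TGANTCA (6.75%) and the NR4A motif AAAGGTCA (1.34%) were in none of the members' windows on either strand. TGACGTCA contains TGACG. These matches are a description of the letters and not of binding.

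Cells were gated into 8 classes by UMIs of defining genes. Conventional CD4 T cells numbered 1538, Foxp3 T cells 945, CD8 T cells with Havcr2 (TIM-3, an inhibitory receptor) 415, CD8 T cells with Gzmk (granzyme K) and no Havcr2 984, other CD8 T cells 606, gamma delta T cells 458, NK cells 136 and B cells 440. Together these were 5522 of 13637 cells, and 647 of them came from library 3. Library totals were 22983991, 55120460 and 3399733 UMIs. Library 3 was the shallowest, with a median of 1726 UMIs per cell against 3985.5 and 4659 in libraries 1 and 2, and the smallest sums rested on 14 NK and 16 Havcr2 CD8 cells of it. Between 7 and 35 barcodes were shared by each pair of libraries.

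Marker genes that the gates did not use were checked next, as the mean CPM of 3 libraries. CPM are UMIs of a gene per 1000000 UMIs of the summed class, with TMM scaling. Cd40lg averaged 211 CPM in conventional CD4 cells and at most 18.2 CPM elsewhere, Ikzf2 was at 524 CPM in Foxp3 cells, Gzma at 4100 CPM in NK cells, Trdv4 at 253 CPM in gamma delta cells and Cd79b at 560 CPM in B cells. Other markers did not follow their class. Icos and Tigit were highest in Foxp3 cells, Lag3 was about as high there as in Havcr2 CD8 cells, and Gzmb, Cd7 and Cst7 were higher in NK and gamma delta cells than in each CD8 class. Tcrg-C2 was at 40.4 CPM in gamma delta cells and 36.8 to 43.3 CPM in the CD8 classes. The 6 gamma delta markers summed to 777, 545 and 74.5 CPM in gamma delta cells of libraries 1 to 3, the last against 56.0 CPM in other CD8 cells of library 3. Sums also held markers of other types. B cell sums held plasma cell markers (Jchain, Mzb1 and Xbp1), at a summed 13835, 26461 and 724 CPM in libraries 1 to 3. Gamma delta sums held all 6 NK markers, at a summed 3521, 2633 and 3885 CPM. The B cell list, nearly all of it Cd74, a gene of antigen-presenting cells, summed to 2782, 6217 and 148 CPM in Foxp3 cells, 2921, 3788 and 11.8 CPM in Havcr2 CD8 cells and 2753, 2673 and 1364 CPM in conventional CD4 cells. It was between 41.4 and 1744 CPM in the other T and NK classes and at 25072 CPM or more in B cells, while Cd79b averaged at most 7.79 CPM outside B cells. Schwann cell and fibroblast markers were at a summed 5.86 CPM or less in every class, and macrophage markers at 796 CPM or less, with the highest in B cells.

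Nr4a2 separated the cell classes more than the other Nr4a genes (chromosome 2, 57106830 to 57124003, minus strand). In libraries 1 to 3 it was at 757, 579 and 260.4 CPM in Havcr2 CD8 cells, 553, 375 and 514 CPM in Gzmk CD8 cells, and 370.1, 303 and 485 CPM in other CD8 cells. In gamma delta cells it was at 404, 364 and 499 CPM and in NK cells at 607, 340.0 and 352 CPM. These 5 classes overlapped each other in level. Conventional CD4 cells, at 132, 96.9 and 135 CPM, and Foxp3 cells, at 119, 102 and 125 CPM, lay below all of them and overlapped one another. B cells were lower still, at 91.4, 31.8 and 12.1 CPM, the last from 1 UMI. When each cell was thinned to 1000 UMIs, Nr4a2 was detected in 43.3% ± 12.1 of Havcr2 CD8 cells, 35.9% ± 8.46 of NK cells and 31.6% ± 7.13 of Gzmk CD8 cells (SD, n = 3 libraries). The shares were 9.38% ± 2.73 in conventional CD4 cells and 4.45% ± 1.83 in B cells, the lowest class. Without thinning they were 72.2% in Havcr2 CD8, 17.8% in conventional CD4 and 10.9% in B cells. Thinning left out 251, 54 and 68 gated cells of libraries 1 to 3 that had fewer UMIs, and the intervals and limits given for counts cover counting error only.

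Nr4a1 was more even (chromosome 15, 101254269 to 101274795, plus strand). It was at 649, 449 and 624 CPM in conventional CD4 cells, 638, 496 and 551 CPM in Foxp3 cells and 590.1, 557 and 559 CPM in NK cells. Those classes did not differ beyond the spread of the libraries. Gzmk CD8 cells had 389.8, 298 and 351 CPM and Havcr2 CD8 cells 413, 329 and 237 CPM, the lowest mean of the 8 classes. B cells had the highest mean and the widest spread, at 1316, 438 and 603 CPM, so that their rank rested on library 1. Nr4a1 UMIs were found in 50.2% ± 17.3 of B cells and 35.5% ± 4.19 of conventional CD4 cells thinned to 1000 UMIs (SD, n = 3).

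Nr4a3 (chromosome 4, 48045153 to 48086447, plus strand) was at 62.0, 20.4 and 0 CPM in B cells, the last a count of 0 that allows up to 36.2 CPM, taken as 3 UMIs. All 7 other classes lay above these values in their own library, from 64.8 CPM in Gzmk CD8 cells of library 2 to 273 CPM in conventional CD4 cells of library 3. Between those 7 classes every neighbouring pair in the order of means overlapped. Library 3 had the highest Nr4a3 of the 3 libraries in 6 of 8 classes, in conventional CD4 cells 273 CPM against 111 and 117.

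**Figure D1:**
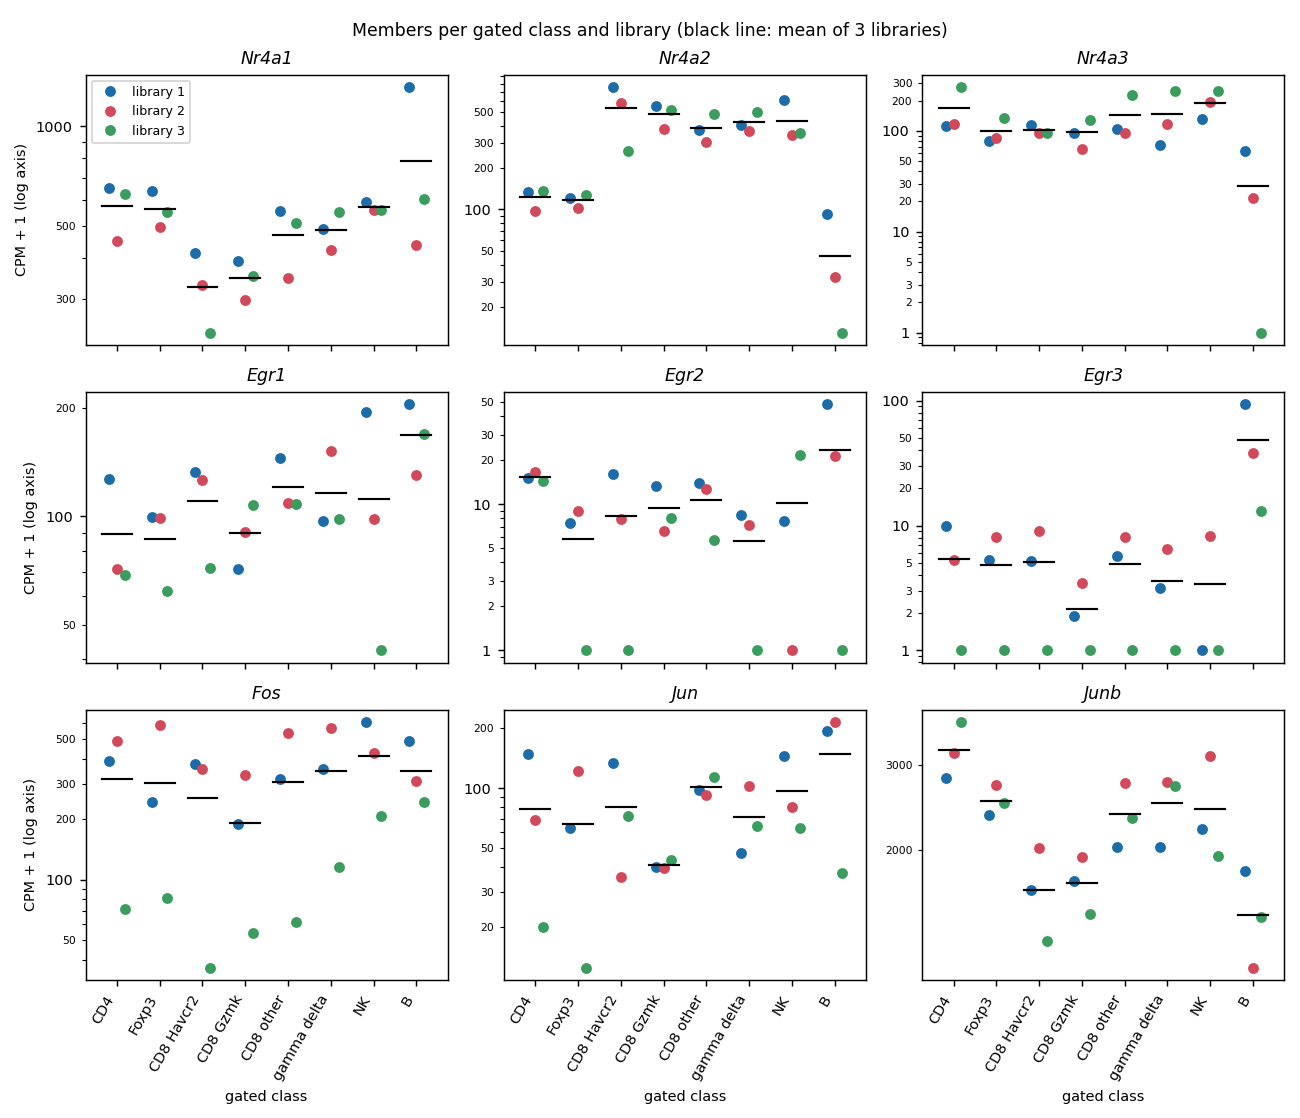
CPM plus 1 of the 9 genes on a log axis, by gated class (x axis) and library (colour), with the mean of the 3 libraries as a black line; a point at 1 is a sum with no UMI. Nr4a2 is high in the 3 CD8 classes, gamma delta and NK cells, Egr3 is highest in B cells, and the Fos points of library 3 are the lowest in every class.

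The Egr genes were sparse. Egr3 (chromosome 14, 70077203 to 70082614, plus strand) was at 92.5, 37.4 and 12.1 CPM in B cells, from 82, 33 and 1 UMIs. In each of the other 7 classes it was between 0 and 8.98 CPM in every library. In library 3 no Egr3 UMI was found outside B cells, which allows 8.10 CPM in conventional CD4 cells and up to 62.1 CPM in NK cells. Egr2 (chromosome 10, 67535475 to 67542188, plus strand) was at 47.4, 20.4 and 0 CPM in B cells and 14.1, 15.5 and 13.5 CPM in conventional CD4 cells. Conventional CD4 cells were thus the class with the least spread, and were above Foxp3 cells (6.43, 7.93 and 0 CPM) in each library. The Egr2 sums of conventional CD4 cells rested on 36, 43 and 5 UMIs. Egr1 (chromosome 18) was found in all 24 sums, from 41.4 CPM in NK cells of library 3 to 204 CPM in B cells of library 1. Its class means ran from 85.8 ± 21.6 CPM in Foxp3 cells to 167 ± 37.5 CPM in B cells (SD, n = 3), and every neighbouring pair in that order overlapped.

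Of the AP-1 genes, Junb, an inducible partner of Batf and Fos proteins, separated cell classes, whereas Fos differed mainly by library. Junb (chromosome 8, 84974484 to 84978718, minus strand) was at 2815, 3179 and 3681 CPM in conventional CD4 cells, above every other class in its own library. Havcr2 CD8 cells had 1653, 2025 and 1302 CPM, Gzmk CD8 cells 1730.5, 1939 and 1476 CPM, and B cells 1812, 1144 and 1459 CPM, the classes with the lowest means. Fos (chromosome 12, 85473890 to 85477273, plus strand) ranged over classes from 188 to 607 CPM in library 1, from 308 to 587 CPM in library 2 and from 35.5 to 241 CPM in library 3, which was the lowest library in 8 of 8 classes. Jun (chromosome 4, 95049034 to 95052222, minus strand) was the lowest in library 3 in 4 of 8 classes. In conventional CD4 cells it was at 147, 67.6 and 18.9 CPM. The summed dissociation list of 29 other genes did not share this order, at 9707 to 13420.0 CPM over the classes of library 1, 9630 to 13037 CPM in library 2 and 8439 to 16415 CPM in library 3. Its heat shock genes were at 3764 to 6665 CPM in library 3 against 2926 to 4647 CPM in the other 2. Sums of this size could hide a change as large as that of Fos. They therefore cannot show whether other immediate early genes shared its order. Library, mouse and Cell Ranger version cannot be told apart for library 1, and pooling, depth and library cannot be told apart for library 3.

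Sums of UMIs were then compared between classes with the quasi-likelihood test of edgeR, with the library as a block and adjustment over all 9124 genes tested. The same 24 sums entered these 6 comparisons, so that they share classes. A gene was called at an adjusted p under 0.05.

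CD8 T cells had more Nr4a2 than conventional CD4 cells, and less Nr4a1 and Junb. The mean of the 3 CD8 classes was 3.98-fold above conventional CD4 cells for Nr4a2 (log2 difference 1.99, SE 0.20, edgeR adjusted p 1.21e-08) in 3 of 3 libraries. Nr4a1 was lower by 1.49-fold (log2 −0.57, SE 0.15, edgeR adjusted p 0.00817) and Junb by 1.70-fold (log2 −0.77, SE 0.13, adjusted p 5.91e-05), both in 3 of 3 libraries. The 3 calls among 9 members stand against 13.0% of all genes in this comparison (5.14% higher and 7.88% lower in CD8 cells). Nr4a3, Egr1, Egr2, Egr3, Fos and Jun did not pass, with log2 differences from −0.80 to 0.23. Among cells with no Fos UMI the 3 differences were 1.98 (Nr4a2), −0.68 (Nr4a1) and −0.94 (Junb), each still called. This filter, also used below, took all UMIs of a cell, so deeper cells were left out more often. Nr4a1 lost its call without library 3 (−0.50, adjusted p 0.0933), and without the library block (−0.60, adjusted p 0.249), and Nr4a3 was called with no filter on low counts (−0.41, adjusted p 0.0435). The other genes of the antigen receptor response list went mostly the way of Junb: 14 of 19 tested were lower and 2 higher in CD8 cells. Their median log2 difference was −0.85 against 0.00 over all genes. They included Cd40lg (−4.90), the CD40 ligand of helper cells, Tnfrsf4 (−3.20), which encodes OX40, Spry1 (−2.77), an inhibitor of ERK signals, and Il2ra (−1.94), the IL-2 receptor alpha chain. Such genes can mark the cell type as well as its activation: Cd40lg averaged 211 CPM in conventional CD4 cells and 2.90 to 14.9 CPM in the CD8 classes. Nr4a2 therefore differed in the opposite direction from most of that list, in which cell type and activation were not told apart. Of the 29 dissociation genes, 9 were lower and 1 higher.

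B cells, whose antigen receptor signals through other chains, had more Egr and Nr4a1 UMIs than the T cell mean, and fewer of Nr4a2 and Nr4a3. Conventional T cells (the mean of CD4 and CD8 classes) were above B cells for Nr4a2 (log2 difference 2.06, SE 0.25, edgeR adjusted p 1.12e-07), Nr4a3 (1.53, SE 0.29, adjusted p 9.88e-05) and Junb (0.73, SE 0.14, adjusted p 0.000168). They were below B cells for Egr3, by 12.9-fold (log2 −3.69, SE 0.33, adjusted p 1.45e-10), Egr2 (log2 −1.27, SE 0.33, adjusted p 0.00271), Jun (−1.19, SE 0.32, adjusted p 0.00401), Nr4a1 (−0.73, SE 0.15, adjusted p 0.000349) and Egr1 (−0.72, SE 0.20, adjusted p 0.00584). Fos was not called, at −0.29 (adjusted p 0.415). The 8 calls of 9 compare with 33.2% of all genes, 16.9% higher and 16.4% lower in T cells, the highest background of the comparisons made.

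The direction held in 3 of 3 libraries for Nr4a1, Nr4a2, Nr4a3, Egr1, Egr3 and Junb, and in 2 of 3 for Egr2 and Jun. For Nr4a1 the T cell mean joins conventional CD4 cells (a mean of 574 CPM) with the lower CD8 classes (326 to 469 CPM). B cells were above conventional CD4 cells alone in 1 of 3 libraries, and were not tested against them. Nr4a1 rested on library 1, without which it was at −0.27 (adjusted p 0.254) and Egr2 and Egr3 were too low to be tested. Without library 2, Jun was at −0.76 and not called (adjusted p 0.0843) and Fos was called at −0.85 (adjusted p 0.00344). Egr1 was not called among cells with no Fos UMI (−0.53, adjusted p 0.0789), whereas Egr3 there was at −4.85 and Nr4a1 at −0.92, both called. Jun was also not called without the library block (−1.14, adjusted p 0.0767) or with DESeq2 (−1.02, adjusted p 0.163), which called the other 7. Because plasma cell markers were abundant in the B cell sums, B cells with a Jchain UMI were left out in an analysis added after seeing the data. The same 8 genes were called, with Egr3 at −4.16, Nr4a1 at −1.13 and Junb at 0.36. Of the antigen receptor response list, 12 of 19 genes were higher in T cells and 5 in B cells. The former included the T cell genes Cd5 (6.34), Cd40lg (5.85) and Icos (5.68), which mark the cell type as well as its activation. Of the feedback list, a set of signalling inhibitors, 7 of 12 were higher in T cells and 0 lower, Rgs1 (3.07) and Tnfaip3 (2.10) among them.

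NK cells have no rearranged antigen receptor, and none of the 9 genes was called higher in conventional T cells than in them. Nr4a2 was lower in T cells than in NK cells by 1.90-fold (log2 −0.92, SE 0.21, edgeR adjusted p 0.00238) in 3 of 3 libraries, 1 call of 9 members against 11.0% of all genes (5.55% higher and 5.46% lower in T cells). The T cell mean gives CD4 cells (a mean of 121 CPM) the same weight as the CD8 classes together (386 to 532 CPM), which overlapped NK cells (433 CPM), and NK cells were not tested against CD8 cells alone. Without library 1 it was at −0.72 and not called (adjusted p 0.0821), nor was it without the library block (−0.90, adjusted p 0.0847) or in cells with no Fos UMI, where library 3 had too few NK cells for a sum (−0.81, adjusted p 0.0647). The other 8 members did not pass. Fos was at −0.57 (SE 0.26, adjusted p 0.188), and was called without library 2 (−1.02, adjusted p 0.00329). Nr4a1 differed by −0.31 (SE 0.18, adjusted p 0.321) and Nr4a3 by −0.55 (SE 0.28, adjusted p 0.237). Other genes of the antigen receptor response list did separate the 2 cell types: 10 of 19 were higher in T cells and 1 lower, with a median log2 difference of 1.03. Tnfrsf4 (4.98), Cd5 (5.55), a T cell surface inhibitor, Cd40lg (8.28) and Spry1 (8.90) were the furthest, with fitted differences of genes near 0 in NK cells.

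Gamma delta T cells had 1.76-fold more Nr4a2 than conventional T cells (log2 0.81, SE 0.18, edgeR adjusted p 0.00153), in 3 of 3 libraries. That T cell mean again joins the low CD4 cells with the CD8 classes. The mean in gamma delta cells, 422 CPM, was below those of Havcr2 (532 CPM) and Gzmk (481 CPM) CD8 cells and overlapped all 3 CD8 classes, and no test was made against CD8 cells alone. Without library 3, where gamma delta markers were low, the difference was 0.75 and was still called. The 1 call of 9 members stands against 14.2% of all genes (8.02% higher and 6.18% lower), and the other 8 did not pass, with log2 differences from −0.97 for Egr2 to 0.31 for Fos. NK markers moved with this difference, as given above. Leaving out gamma delta cells with a UMI of Ncr1, Klra8, Klre1 or Gzma, chosen after seeing the data, gave 0.49 (SE 0.25, adjusted p 0.351). That kept 44, 154 and 15 of the 136, 278 and 44 gamma delta cells of libraries 1 to 3, so most held a UMI of an NK gene. Gates of at least 2 UMIs gave 0.54 (adjusted p 0.0540). The antigen receptor response list was lower in 9 of 19 genes and higher in 1, with Tnfrsf4 (−4.82), Cd5 (−4.07), Spry1 (−2.36) and Cd40lg (−1.94) the furthest. Of the other AP-1 list, 4 of 8 tested were higher, such as Batf3 (1.86), Maff (1.34) and Mafk (1.22), and Batf, a partner of Junb in effector T cells, was lower (−1.16).

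**Figure D2:**
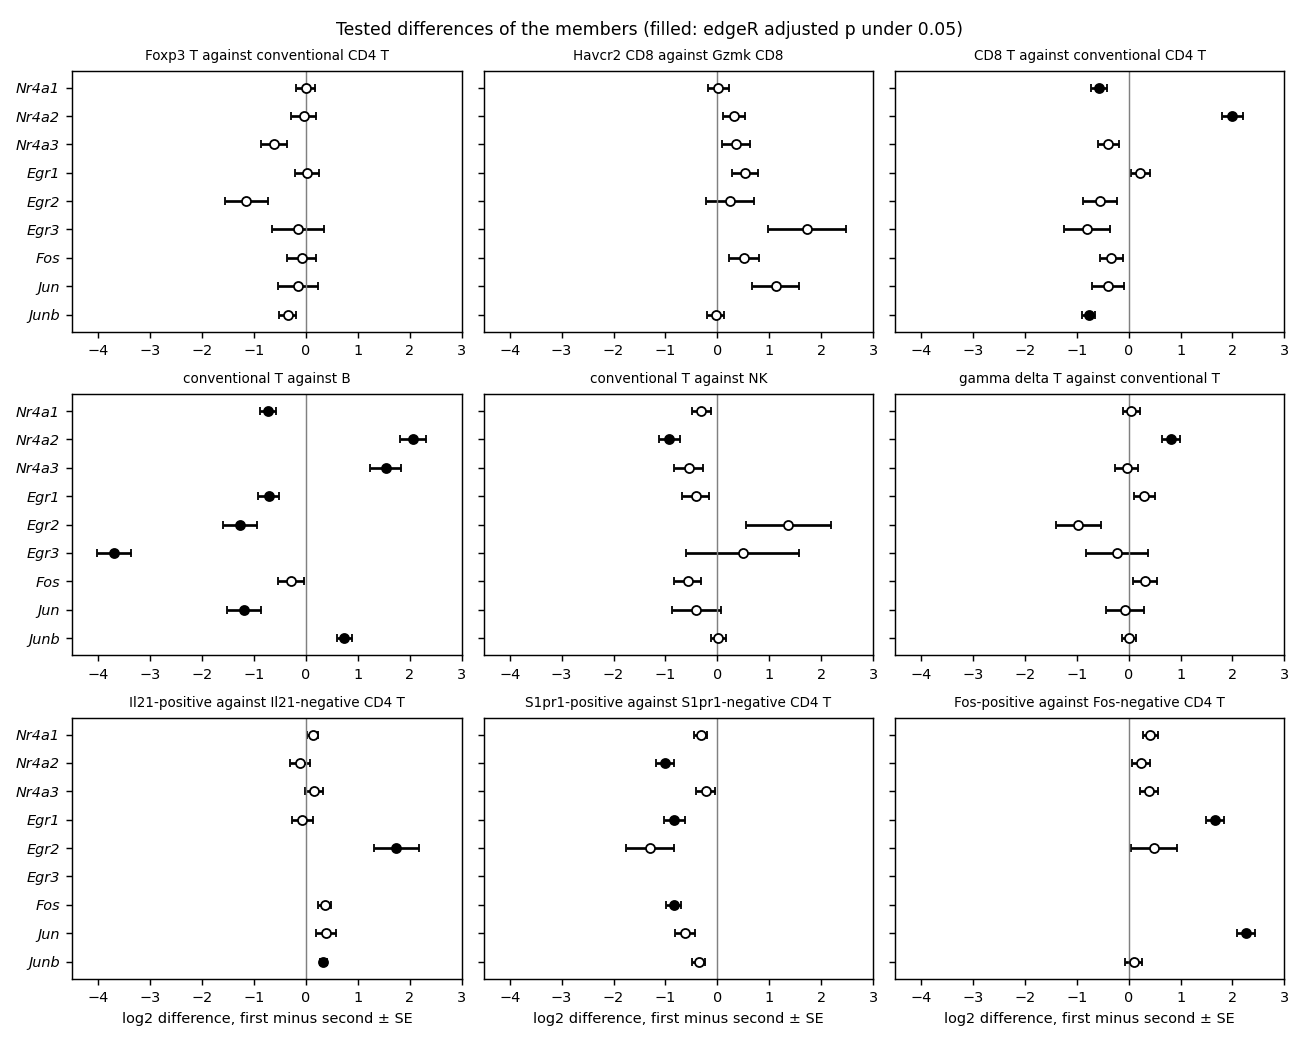
Log2 differences (x axis, first class minus second, with SE bars) of the 9 genes in the 9 comparisons; filled points have an edgeR adjusted p under 0.05, and Egr3 in the 3 lower panels and Fos in the Fos panel have no point because they were not tested. Nr4a2 is the gene filled in most panels, to the right of 0 against conventional CD4 cells, against B cells and in gamma delta cells, and to the left against NK cells and with S1pr1.

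No member passed the test between Havcr2 and Gzmk CD8 cells. Calls were 0 of 9 with edgeR and 0 with DESeq2, against 3.75% of all genes with edgeR (1.57% higher and 2.18% lower in Havcr2 cells), and 3 members (Egr1, Egr3 and Jun) had an unadjusted p under 0.05. Their log2 differences, Havcr2 minus Gzmk, were 0.52 (SE 0.25) for Egr1, 1.72 (SE 0.75) for Egr3, which had 8, 7 and 0 UMIs in Havcr2 cells of libraries 1 to 3, and 1.12 (SE 0.45) for Jun. Nr4a2 was at 0.32 (SE 0.21, edgeR adjusted p 0.562), positive in 2 libraries and negative in library 3, which had 16 Havcr2 cells. Under gates of at least 2 UMIs, which left library 3 without a Havcr2 sum, it was at 0.87 and called (adjusted p 0.0189). Without library 3 alone it was at 0.53 and not called (adjusted p 0.175). Jun was called without library 2 (1.58, adjusted p 0.0434) or with no filter on low counts. The antigen receptor response genes Cd83 (2.40), a surface activation marker, and Tnfrsf9 (1.64), which encodes 4-1BB, were higher in Havcr2 cells, 2 of 19, and 5 of 29 dissociation genes were lower, among them Klf2 (−1.53) and Btg1 (−0.92). Cd83 is also a gene of antigen-presenting cells, and Cd74 moved with this comparison, at a mean of 2236 CPM in Havcr2 and 473 CPM in Gzmk cells. In library 3 the summed B cell list was instead lower in Havcr2 cells, at 11.8 against 74.5 CPM. Doublets were not called, and their part in the result was not tested. Havcr2 CD8 cells had a median of 4210.0, 6107 and 3576 UMIs and Gzmk CD8 cells 4258.5, 3270.0 and 2153.

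Foxp3 T cells are taken as regulatory T cells, and no member passed the test between them and conventional CD4 cells by edgeR or DESeq2 (0 of 9 in each, against 4.92% of all genes with edgeR, 2.35% higher and 2.58% lower in Foxp3 cells). Nr4a3, Egr2 and Junb had an unadjusted p under 0.05, with a negative difference in 3 of 3 libraries. Nr4a3 was at 78.7, 83.5 and 133 CPM in Foxp3 cells and 111, 117 and 273 CPM in conventional CD4 cells, a log2 difference of −0.62 (SE 0.25, adjusted p 0.192). Egr2 differed by −1.15 (SE 0.41, adjusted p 0.128) and Junb by −0.35 (SE 0.16, adjusted p 0.315). With no filter on low counts, Nr4a3 (adjusted p 0.0189) and Egr2 (adjusted p 0.0497) were called. Nr4a1 differed by −0.01 (SE 0.18). In the antigen receptor response list 5 of 19 genes were lower and 2 higher, with Cd40lg (−3.34) and Spry1 (−2.25) below and Tnfrsf9 (2.42) and Il2ra (1.87), both highly expressed by regulatory T cells, above.

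Within conventional CD4 T cells, cells with an Il21 UMI had more Egr2. Il21 encodes the helper cytokine that the study follows. In libraries 1 and 2, Egr2 was at 32.6 and 43.4 CPM in 80 and 114 Il21-positive cells and at 11.8 and 10.9 CPM in 523 and 635 Il21-negative cells, from 13 and 21 UMIs against 23 and 22. Library 3 had 8 Il21-positive cells, too few for a sum, and its Il21-negative cells were at 15.5 CPM. The difference was 3.34-fold (log2 1.74, SE 0.43, edgeR adjusted p 0.00244), up in 2 of 2 libraries. Junb was higher by 0.33 (SE 0.07, adjusted p 5.30e-05), at 3636 and 4300.4 CPM against 2956 and 3331 CPM. These were 2 of 8 members tested, against 4.64% of 6449 genes (2.43% higher and 2.2% lower). Fos was at 0.36 (SE 0.12, adjusted p 0.0561) with 1 library up and 1 down, and Nr4a1, Nr4a2, Nr4a3, Egr1 and Jun were between −0.12 and 0.38 and not called.

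Both calls were fragile. Without the library block Egr2 was at 1.66 (adjusted p 0.546) and Junb at 0.22 (adjusted p 0.998), and DESeq2 called neither. Egr2 was too low to be tested under stricter gates, without dividing cells, in cells with no Fos UMI, with the split on thinned cells and with sums of at least 5 cells, an alternative added after seeing the data to keep library 3, where Junb was at 0.26 (adjusted p 0.977). With library 1 or 2 left out, a single pair of sums remained with no test, and Egr2 was at 1.97 and 1.44. Il21-positive cells were also deeper, with medians of 3682.5 and 3577.5 UMIs against 2791 and 2423. In the antigen receptor response list 9 of 19 genes were higher and 1 lower. Nfkbid (1.13), Cd83 (1.09) and Spry1 (1.05) rose and Tnfrsf9 (−1.63) fell. Of the dissociation list 3 of 27 rose and 3 fell, with Klf2, a factor of resting T cells, the furthest (−2.26).

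Conventional CD4 cells with an S1pr1 UMI had less Nr4a2, Egr1 and Fos. S1pr1 encodes the receptor that lets T cells leave tissue, and is known to be lost on activation. Nr4a2 was at 78.7, 69.6 and 77.05 CPM in S1pr1-positive cells of libraries 1 to 3 and 181, 118 and 164 CPM in S1pr1-negative cells, with no overlap. It was lower by 2.01-fold (log2 −1.01, SE 0.17, edgeR adjusted p 0.000707) in 3 of 3 libraries. Fos differed by −0.84 (SE 0.15, adjusted p 0.000824) and Egr1 by −0.83 (SE 0.20, adjusted p 0.0166), both down in libraries 1 and 2 and up in library 3, where Fos was at 88.1 against 68.5 CPM. The 3 calls of 8 members tested stand against 4.76% of 7124 genes (2.18% higher and 2.58% lower). Egr2 was at 7.26, 9.74 and 0 CPM against 19.9, 19.4 and 19.0 CPM, from 6, 7 and 0 UMIs in the positive cells, and missed the threshold (−1.30, SE 0.46, adjusted p 0.133). Junb (−0.36), Jun (−0.62), Nr4a1 (−0.32) and Nr4a3 (−0.23) were not called. Egr3, too low to be tested, had 1, 0 and 0 UMIs in S1pr1-positive cells and 22, 12 and 0 in S1pr1-negative cells. Median UMIs were 3337.5, 2550.0 and 1554 in S1pr1-positive cells and 2679, 2545 and 1791.5 in S1pr1-negative cells.

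Among cells with no Fos UMI, Nr4a2 was at −1.26 (SE 0.19, adjusted p 0.000179) and Egr1 at −0.38 (SE 0.28, adjusted p 0.634). The Nr4a2 difference was thus as large without Fos-positive cells, and that of Egr1 was smaller, a change that was not tested. The filter used all UMIs of a cell and so left out deeper cells more often. In library 1 the 203 conventional CD4 cells left out held 1060695 UMIs and the 400 kept held 1106935. Nr4a2 lost its call without library 1 (−0.80, adjusted p 0.0739), under stricter gates, which left library 3 without an S1pr1-positive sum (−0.75, adjusted p 0.116), with the split on thinned cells (−0.78, adjusted p 0.131) and without the block (−1.04, adjusted p 0.388). Egr1 lost its call without library 1 (−0.52, adjusted p 0.605) or library 2 (−0.82, adjusted p 0.127), and Fos without library 2 (−0.60, adjusted p 0.331). Neither was called without the library block or with DESeq2 (adjusted p 0.691 for Egr1 and 0.238 for Fos), which called Nr4a2 alone of the members, and Egr1 was not called without the top 5% of UMIs (adjusted p 0.0640). Without library 3, Nr4a1 (−0.37) and Jun (−0.57) were called too, which made 5. In the antigen receptor response list 9 of 19 genes were lower and 0 higher, with Il2ra (−1.70), Tnfrsf9 (−1.59), Spry1 (−1.35) and Cd83 (−1.08) the furthest. The dissociation list was split, with 3 of 27 higher, such as Klf2 (2.38) and Rhob (1.38), and 3 lower, such as Atf3 (−2.03) and Dusp1 (−0.74).

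**Figure D3:**
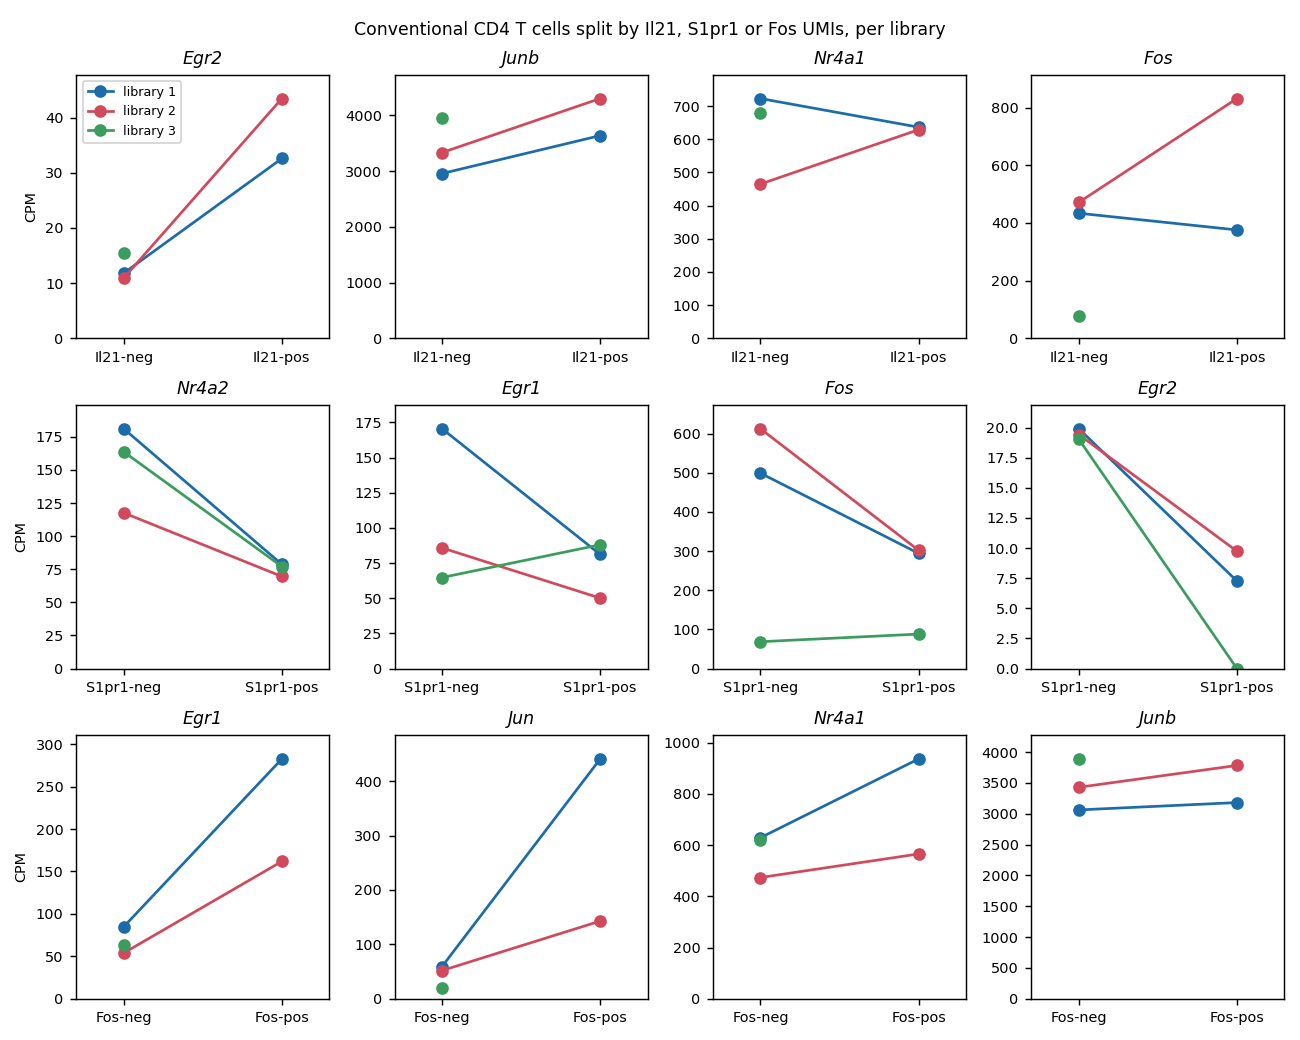
CPM (y axis, from 0) of selected genes in conventional CD4 T cells without and with a UMI of Il21 (top), S1pr1 (middle) or Fos (bottom), with a line per library; library 3 has a point without a line where its positive cells were too few for a sum. Egr2 rises with Il21, Nr4a2 falls with S1pr1 in all 3 libraries, and Jun and Egr1 rise with Fos in libraries 1 and 2, while Nr4a1 and Junb did not pass the test there.

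The cells that held Fos were examined next, as a sign of dissociation. Conventional CD4 cells of at least 1000 UMIs were split on a Fos UMI in a draw of 1000 UMIs. This gave 105 and 147 Fos-positive cells in libraries 1 and 2 and 9 in library 3, too few for a sum. All UMIs were summed, so Fos-negative cells could hold Fos UMIs outside the draw. Their mean was 103 CPM of Fos over 3 libraries, against 1574 CPM in Fos-positive cells of libraries 1 and 2. On all UMIs, 203 and 285 conventional CD4 cells of these 2 libraries held Fos. Jun was at 441 and 143 CPM in Fos-positive cells against 59.3 and 51.9 CPM in Fos-negative cells, higher by 4.79-fold (log2 2.26, SE 0.18, edgeR adjusted p 6.31e-21). Egr1 was at 283 and 162 CPM against 84.8 and 53.9 CPM, higher by 3.18-fold (log2 1.67, SE 0.17, adjusted p 1.27e-14). These 2 calls among 7 members tested stand against 3.79% of 6788 genes (2.86% higher and 0.928% lower). Both lost their call without the library block (adjusted p 0.181 for each).

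The Nr4a genes, Junb and Egr2 were not called. Nr4a1 was at 937 and 566 CPM in Fos-positive cells against 629 and 474 CPM in Fos-negative cells, a log2 difference of 0.42 (SE 0.14, edgeR adjusted p 0.0778). Nr4a2 differed by 0.23 (SE 0.17, adjusted p 0.711), Nr4a3 by 0.39 (SE 0.17, adjusted p 0.2896), Junb by 0.10 (SE 0.17, adjusted p 0.917) and Egr2 by 0.49 (SE 0.44, adjusted p 0.794). Whether these differences are smaller than that of Egr1 was not tested. Nr4a1 was called without dividing cells (0.51, adjusted p 0.0176). With the split on Jun in place of Fos, Nr4a1 was called at 0.95 (adjusted p 5.42e-05) and Junb at 0.43, and Nr4a2 was at −0.68, so that the value of Nr4a2 turned with the gene used for the split.

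Shares of single cells with a UMI were then set side by side at equal depth, as a description. In conventional CD4 cells of library 1, Egr1 UMIs were in 17.1% of 105 Fos-positive cells (exact 95% interval 10.5 to 25.7) and 8.27% of 399 Fos-negative cells (5.76 to 11.4). Nr4a2 UMIs were in 15.2% (8.97 to 23.6) and 11.8% (8.78 to 15.4). Nr4a1 UMIs were in 42.9% (33.2 to 52.9) and 36.8% (32.1 to 41.8), and in library 2 in 30.6% and 30.7%. In CD8 cells of library 2, Jun UMIs were in 12.4% of 161 Fos-positive cells (7.76 to 18.5) and 2.12% of 660 Fos-negative cells (1.16 to 3.53), while Nr4a2 UMIs were in 25.5% (18.9 to 32.9) and 26.4% (23.0 to 29.9). In B cells of library 1, Nr4a1 UMIs were in 81.6% of 49 Fos-positive cells (68.0 to 91.2) and 65.4% of 136 Fos-negative cells (56.8 to 73.4). In these T cells most of those with an Nr4a1 or Nr4a2 UMI held no Fos UMI at this depth. The same was true of all cells of these classes. Fos-negative cells were 399 against 105 Fos-positive in conventional CD4 cells of library 1, and 660 against 161 in CD8 cells of library 2. The majority therefore follows from the scarcity of Fos UMIs, and does not show that cells with Nr4a UMIs lacked Fos.

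Of the 27 dissociation genes tested, 6 were higher in Fos-positive cells and 0 lower, among 194 genes called higher in all. Zfp36 (1.76), which encodes an RNA-destabilizing protein, Atf3 (1.48), Fosb (1.43) and the heat shock gene Hsp90aa1 (0.61) were the furthest. Of the other AP-1 list, which shares Atf3, Fosb and Jund with it, 4 of 8 were higher and 0 lower. In the antigen receptor response list 2 of 19 were higher, Cd83 (1.39) and Cd69 (1.32), an early activation and retention marker, and 4 were lower, among them Tnfrsf4 (−0.72) and Icos (−0.55). Of the feedback list, 0 of 11 passed with edgeR, with Cblb the furthest (−0.50, adjusted p 0.12). The parts played by dissociation and by antigen in these values were not tested.

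**Figure D4:**
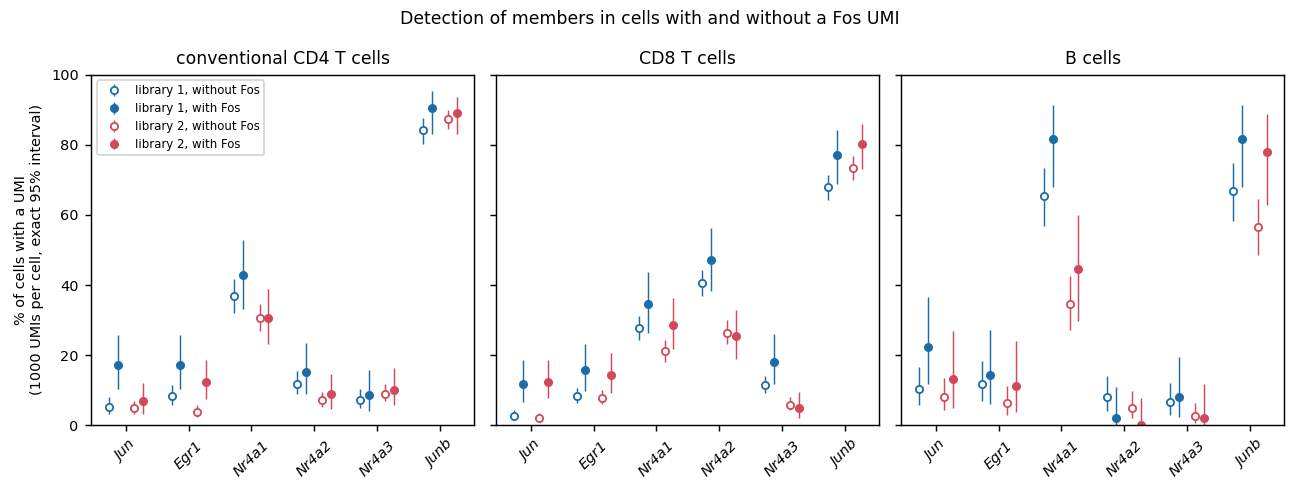
Share of cells (y axis, percent, exact 95% interval) with a UMI of each gene after thinning to 1000 UMIs per cell, in cells with (filled) and without (open) a Fos UMI, for libraries 1 and 2 (colour) in conventional CD4, CD8 and B cells. The Jun and Egr1 points of Fos-positive cells lie above those of Fos-negative cells in each panel, with overlapping intervals in several pairs, and the intervals of Nr4a2 and Nr4a3 overlap in every pair.

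Finally, genes outside the 9 were ranked by likeness of their log2 CPM, centred within each library, to each member over the 24 sums, among 5533 genes with a mean of at least 20 CPM. The sums share libraries and classes, so that these correlations are descriptions. Nr4a2 was most like Klrd1 (Pearson r 0.958), which encodes the NK receptor chain CD94, Sult2b1 (0.935) and Klrc1 (0.935), which encodes the partner chain NKG2A. Egr3 was most like the B cell genes Dok3 (0.917), Iglc2 (0.915) and Fcrla (0.912), and Nr4a3 like Prex1 (0.946), Dusp5 (0.944), an ERK phosphatase, and Washc3 (0.944). Junb was most like Dusp1 (0.899), Malt1 (0.802) and Ifrd1 (0.789), and Nr4a1 like Pde4b (0.835), Tgif1 (0.824) and Rheb (0.814). Fos was most like Irf8 (0.797), Lyn (0.767) and Kctd12 (0.758), and Egr2 like Ubtf (0.8003), Timm17a (0.708) and Avl9 (0.688). The leading genes of Egr1 (Gpr171, Tec and mt-Nd2) reached 0.771 and those of Jun (Bmt2, Rpn2 and 5031425E22Rik) 0.714. Among the members, Nr4a2 and Nr4a3 were alike (0.73), and both were opposed to Egr3 (−0.73 for Nr4a2 and −0.62 for Nr4a3). These values include B cells, where Nr4a2 and Nr4a3 had their lowest means and Egr3 its highest. Nr4a3 had a count of 0 in B cells of library 3. Between CD8 and conventional CD4 cells the 2 Nr4a genes differed, at log2 1.99 for Nr4a2 and −0.39 for Nr4a3, the latter not called. Likeness without the B cell sums was not tested. Nr4a1 was opposed to Nr4a2 (−0.50) and like Fos and Egr3 (0.56 each).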

How the data were processed

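Per the labels and the study's methods, 5′ libraries were made with 10x Genomics chemistry, and the authors mapped reads to mm10 with Cell Ranger (5.0.1 for library 1, 6.1.2 for libraries 2 and 3). The deposited values are raw UMI counts. Library 1 had no gene list among the files used here and took the row order of the others (Spearman correlations of row totals 0.9501 and 0.9287 across genes).

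Barcodes were kept at 300 or more UMIs, at most 5000 genes and at most 20% mitochondrial counts. Doublets were not called. Gates needed at least 1 UMI of the defining genes and none of the excluding genes: T cells had a Cd3d, Cd3e or Cd3g UMI and no Cd79a, Ms4a1, C1qa or Csf1r, and were divided by Cd4, Foxp3, Cd8a or Cd8b1 (then Havcr2 and Gzmk) and Trdc. NK cells had Ncr1 without Cd3 genes, and B cells had Cd79a and Ms4a1. Such gates favour deeper cells. UMIs were summed per library and class, leaving out sums of fewer than 10 cells.

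Sums were tested with edgeR 4.0.16 in R 4.3.3 (quasi-likelihood, filterByExpr, TMM, library as a block, Benjamini-Hochberg over all genes tested), with DESeq2 1.42.0 as an alternative. A check on simulated data used the first comparison of each fit. The simulated sums had no differences between libraries, so the check did not cover what the block removes. Classes come from the same mice and the block removes differences between libraries. The p-values therefore cover how class differences vary over the 3 libraries, with dispersion shared over genes. The Il21 and Fos splits compare 2 libraries with 1 residual degree of freedom, so small p-values there rest largely on that shared dispersion. All members were named, with the genes of the largest difference per list. The antigen receptor response (20 genes), other AP-1 (9), dissociation (29) and feedback (12) lists overlap. The members, lists and gates were chosen with earlier results of these data known. Likeness used log2(CPM + 1). Gene positions are GENCODE vM21 (GRCm38).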

Additional observations from a re-analysis of the deposited data

How the results depend on the processing

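Of 20 calls on members, 0 reversed direction under any alternative. The library is the replicate block of these fits, in which classes of the same mice are paired by library. With no filter on low counts, the members called were 2 (Foxp3 against CD4), 1 (Havcr2 against Gzmk), 2 (T against NK). With gates of 2 UMIs, the members called were 1 (Havcr2 against Gzmk), 0 (gamma delta against T), 0 (Il21). Without the library block, the members called were 0 (T against NK), 0 (gamma delta against T), 0 (Il21), 0 (S1pr1), 0 (Fos). In cells with no Fos UMI, the members called were 0 (T against NK), 1 (Il21), 1 (S1pr1). Without gamma delta cells holding NK genes, the members called were 0 (gamma delta against T). With DESeq2, the members called were 0 (Il21), 1 (S1pr1). Without dividing cells, the members called were 1 (Il21). With splits on thinned UMIs, the members called were 1 (Il21). With sums of at least 5 cells, the members called were 0 (Il21). With the split on Jun, the members called were 4 (Fos), a count not comparable with the main fit, since another gene made the split. With 1 library left out, they ranged from 0 to 1 (Havcr2 against Gzmk), from 5 to 8 (T against B), from 0 to 2 (T against NK), from 1 to 5 (S1pr1). In the comparison of CD8 with CD4 cells no member count moved by over 1.5 times.

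Under alternatives that gave a test, 67 fitted values had the opposite sign, 0 of them called with either setting, and the cause was not tested. Without the library block these were Egr1 −0.020 (Foxp3 against CD4), Nr4a1 −0.049 (Havcr2 against Gzmk), Nr4a3 0.012 (gamma delta against T), Nr4a3 −0.32 (Il21), Nr4a3 −0.12 (Fos). With DESeq2 these were Nr4a1 0.0092 (Foxp3 against CD4), Junb 0.042 (Havcr2 against Gzmk), Junb −0.0063 (T against NK), Junb −0.037 (gamma delta against T). With gates of 2 UMIs these were Egr1 −0.090 (Foxp3 against CD4), Junb 0.16 (Havcr2 against Gzmk), Egr3 −0.061 (T against NK), Egr3 0.019 and Junb −0.028 (gamma delta against T), Nr4a3 −0.13 (Il21), Nr4a3 0.067 (S1pr1). Without the top 5% of UMIs these were Egr1 −0.19 and Egr3 0.084 (Foxp3 against CD4), Egr1 0.29 and Egr3 −0.054 (T against NK), Egr3 0.40 and Jun 0.14 (gamma delta against T), Fos −0.054 (Il21). Without dividing cells these were Nr4a1 0.016 and Egr1 −0.17 (Foxp3 against CD4), Junb 0.10 (Havcr2 against Gzmk), Nr4a1 −0.048 and Junb −0.0084 (gamma delta against T), Nr4a2 0.077 (Il21). With upper-quartile scaling these were Junb 0.055 (Havcr2 against Gzmk), Junb −0.096 (T against NK), Junb −0.026 (gamma delta against T). With no filter on low counts these were Nr4a1 −0.0039 (Havcr2 against Gzmk), Junb −0.011 (gamma delta against T). In cells with no Fos UMI these were Nr4a1 −0.14 and Jun −0.90 (Havcr2 against Gzmk), Junb −0.045 (T against NK), Nr4a3 0.25, Egr3 0.75 and Jun 0.92 (gamma delta against T). Without gamma delta cells holding NK genes these were Nr4a1 −0.21, Nr4a3 0.097 and Jun 0.76 (gamma delta against T). With splits on thinned UMIs these were Fos −0.77 and Jun −0.17 (Il21). With the Fos split on all UMIs these were Nr4a2 −0.17 and Junb −0.10 (Fos). With the split on Jun these were Nr4a2 −0.68 (Fos). With 1 library left out the values spanned Egr1 −0.0082 to 0.58 (CD8 against CD4), Egr1 −0.29 to 0.32, Fos −0.47 to 0.25, Jun −1.09 to 0.71, Nr4a1 −0.083 to 0.078, Nr4a2 −0.13 to 0.010 (Foxp3 against CD4), Jun −0.084 to 1.58, Junb −0.050 to 0.039, Nr4a1 −0.058 to 0.11 (Havcr2 against Gzmk), Nr4a3 −0.40 to 0.14 (S1pr1), Junb −0.091 to 0.16 (T against NK), Egr1 −0.19 to 0.64, Jun −0.90 to 0.74, Junb −0.034 to 0.072, Nr4a1 −0.014 to 0.14, Nr4a3 −0.27 to 0.21 (gamma delta against T).

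Leaving out B cells with Jchain changed no call. With library 1 or 2 left out of the Il21 and Fos splits no residual degree of freedom remained, so those are values with no test. They are not among the 67 sign changes. In the Il21 split the log2 difference of Egr1 was −0.94 in library 1 and 0.74 in library 2. That of Nr4a1 was −0.18 and 0.43. Nr4a3, Fos and Jun also differed in sign between these libraries. Depth limited Egr2 and Egr3 most, since many of their sums held under 10 UMIs, and library 3 throughout.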
